A study of Mus musculus with 10 samples.

Results

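Retinoic acid is the active form of vitamin A, and 8 genes of its synthesis, carriage and reception were followed in the left atrium of adult mice. They were chosen by name: Aldh1a1, Aldh1a2, Dhrs3, Stra6, Crabp2, Rara, Rarb and Rarg, 8 of the 23337 genes in the count table. All 8 were listed there, and 7 passed the filter on low counts, so only these 7 were tested; Crabp2 was not. The groups were 6 libraries labelled Tbx5 knockout (Tbx5-/-) and 4 labelled control (wild type, Tbx5 +/+), each made from the left atria of an animal of mixed C57B6 and 129 background. Tbx5 is a T-box transcription factor gene, active in the heart. In the knockouts a tamoxifen-inducible Cre, driven from the ubiquitous R26 locus and so not restricted to heart muscle, excised exon 3. The stated dose was 0.167 mg tamoxifen a day over 3 days, with the atria collected 1 week afterwards. Whether control animals carried Cre or were given tamoxifen is not stated in the labels. Age is given as 8 to 10 weeks by the sample labels and as 6 to 8 weeks by the protocol. Each library held 5701670 to 7697556 counted reads.

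Cells make retinoic acid from retinol in stages. Retinol is reversibly oxidised to retinaldehyde, and retinaldehyde dehydrogenases, among them Aldh1a1 and Aldh1a2, then oxidise retinaldehyde irreversibly to retinoic acid. The acid binds nuclear receptors encoded by Rara, Rarb and Rarg, which sit on DNA as partners of the retinoid X receptors. In the heart, retinoic acid is best known for patterning the inflow end of the embryonic heart tube, from which the atria form, and Aldh1a2 is the main synthesising enzyme in the early embryo and in the epicardium.

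The labels were checked before the results. Tbx5 (chr5:119832668-119885219, GRCm38, plus strand) was higher, not lower, in the libraries labelled knockout, at 1497 to 2460 normalized counts with a median of 1991, against 1077 and 992 in control M1 and M2 and 785 and 901 in control F1 and F2. The log2 fold change, knockout over control, was 1.03 ± 0.14 (SE), and the mean log2 levels differed by 1.05 (exact permutation test, two-sided, p = 0.00476, which is the lowest p that 6 against 4 libraries can give). Exon 3 (119838696 to 119838790) is 95 bases of the gene, so a count over the whole gene does not measure the deletion, and every direction below rests on the label. The labelled sex of the controls went against their sex-linked genes. Xist, the X-inactivation RNA, stood at 3778 to 4555 normalized counts in the 3 knockouts labelled female and at 6820 and 5250 in the 2 controls labelled male, which held 0 reads of Ddx3y, Eif2s3y, Kdm5d and Uty. Those 4 Y-linked genes together had 1265 to 1854 reads in the knockouts labelled male and 2383 and 2106 in the controls labelled female. Knockout M3 and control F1 held both kinds of transcript, with 167 and 138 normalized counts of Xist, against 4.15, 3.67 and 9.41 in the other libraries with Y-linked reads. The comparison of knockout with control does not use the sex labels, and 3 of 6 knockouts and 2 of 4 controls had high Xist.

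Across all genes, 5622 of 13191 tested passed an adjusted p of 0.05 (edgeR quasi-likelihood F-test, Benjamini-Hochberg adjustment), which is 42.6%. Of all tested genes, 20.8% were higher and 21.8% lower in the knockouts, and in 31.3% the ranges of knockout and control libraries did not overlap. The median of the log2 fold changes was 0.00. Of the 7 tested retinoic acid genes, Aldh1a1, Aldh1a2 and Rara rose and Rarb fell, 4 in all, while Dhrs3, Stra6 and Rarg did not pass. In 3 of the 7, Aldh1a1, Aldh1a2 and Rarb, the groups did not overlap. The median log2 fold change of the 7 was -0.17. So small a set is described below gene by gene and not as a group.

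**Figure D1:**
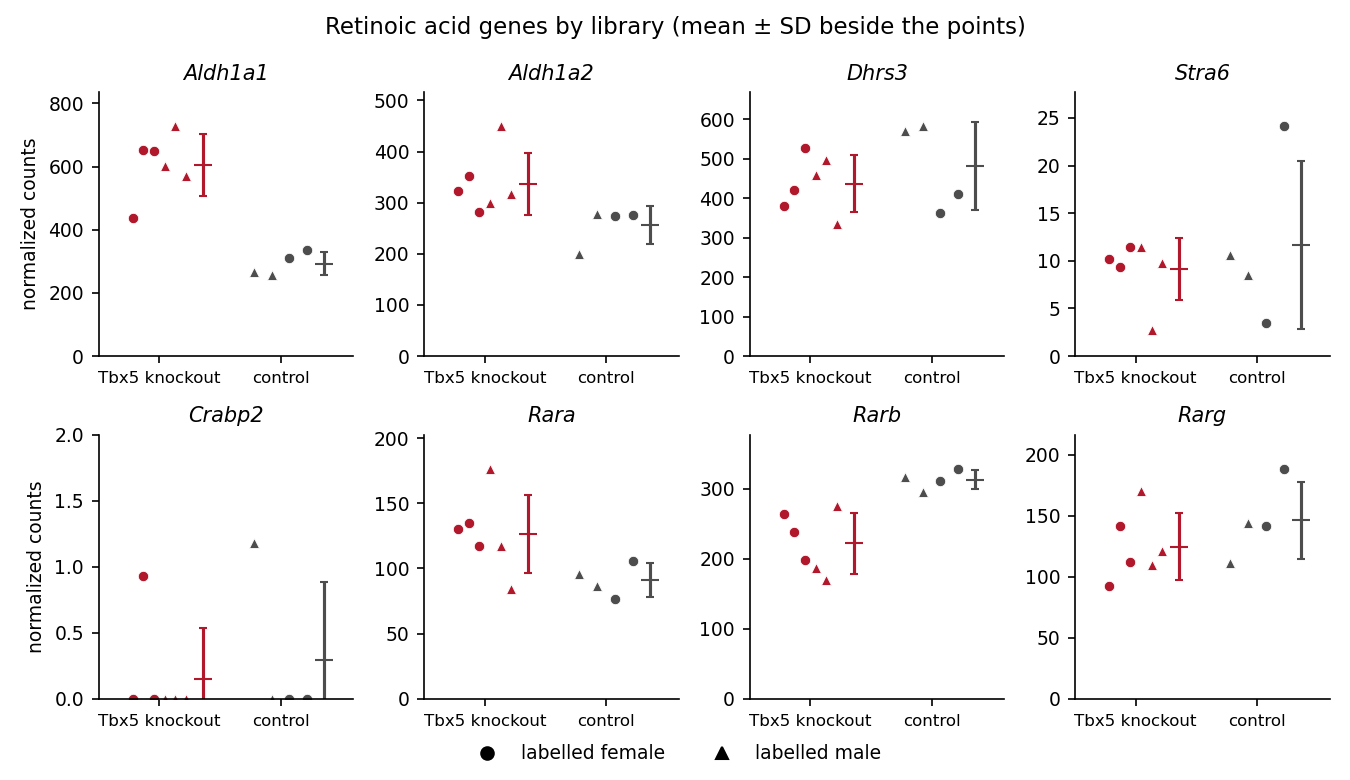
Normalized counts (vertical axes, each from 0) of the 8 genes in 6 Tbx5 knockout libraries (left, red) and 4 control libraries (right, grey), with circles for labelled females, triangles for labelled males, and mean ± SD beside the points. Aldh1a1 knockouts lie between 436 and 727 and controls between 257 and 335, while Rarb knockouts lie between 170 and 276 and controls between 295 and 328.

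Aldh1a1, a retinaldehyde dehydrogenase, rose most of the 7. The gene (chr19:20492715-20643465, plus strand) had 436 normalized counts in the lowest knockout library, F1, a median of 625 and 727 in the highest, M2, against 266 and 257 in control M1 and M2 and 311 and 335 in control F1 and F2. No knockout library fell into the control range. Its mean was 606 ± 98.7 in knockouts and 292 ± 37.1 in controls (SD, n = 6 and 4), a log2 fold change of 1.03 ± 0.13 and a 2.04-fold rise (95% interval of the log2 value 0.77 to 1.29, adjusted p = 4.51e-05). The call held under all 24 other settings tried, with log2 fold changes of 0.82 to 1.27. The ends of that range came from the libraries labelled female alone (0.82) and male alone (1.27). In those fits the controls carry sex-linked transcripts of the other sex than their label. In the authors' deposited table the log2 fold change was 1.03 with an adjusted p of 1.07e-11. Reads of Aldh1a7, a close paralog, were few at 16 in the knockouts and 11 in the controls.

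Aldh1a2, the enzyme of the embryo and the epicardium, rose by less, and the rise was not stable. The gene (chr9:71215789-71296243, plus strand) had 281 normalized counts in the lowest knockout library, F3, a median of 319 and 449 in the highest, M2. In control libraries it had 200 in M1, 277 in M2, 274 in F1 and 275 in F2. The groups did not overlap, but the gap was narrow, since knockout F3 stood only just above control M2. Its mean was 337 ± 59.9 in knockouts and 256 ± 37.8 in controls (SD, n = 6 and 4), a log2 fold change of 0.37 ± 0.14 and a 1.29-fold rise (adjusted p = 0.0437). Leaving out any of 6 libraries ended the call, with adjusted p = 0.0576 without knockout F1, 0.0745 without F2, 0.0827 without M2 and 0.0501 without M3, and 0.122 without control M1 and 0.0544 without control F1. Offsets for exon length and GC content lowered the log2 fold change to 0.22 (adjusted p = 0.199), and without both knockout M3 and control F1 it was 0.41 (adjusted p = 0.0703). In the authors' deposited table it was 0.38 with an adjusted p of 0.0294.

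The levels of Aldh1a1 and Aldh1a2 were compared with each other per kilobase of merged exon. That length joins the exons of all annotated transcripts of a gene, whether or not the tissue makes them. Levels and shares between genes are therefore approximate, and another length could change their order. In knockout libraries Aldh1a1 made up 45.2 ± 4.51% of the summed Aldh1a1 and Aldh1a2 counts per kilobase of exon (38.3 to 51.5%), against 34.4 ± 3.43% (29.8 to 37.9%) in control libraries. Every knockout library had a higher Aldh1a1 share than every control library, though narrowly, with 38.3% in knockout F1 against 37.9% in control M1. The sum of the pair was 231 to 346 normalized counts per kilobase in knockouts and 142 to 189 in controls. The shares follow from the counts already tested and carry no test of their own.

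The promoters of both enzymes held the core of the T-box motif, AGGTGT, the letters that Tbx5 and its relatives are known to bind. The windows searched were the RefSeq promoters (GRCm38.p6), 300 bases around each annotated start, on both strands, and 7 of the 8 genes had at least 1 such window, 17 in all. The core occurred in 13.7% of the 32851 windows of the table, and in 5 of the 17 here, for Aldh1a1, Aldh1a2, Stra6 and Rarg. Stra6 and Rarg did not pass in the genotype test, and no window of Rara or Rarb, which did, held the core. The matches of the synthesis enzymes are printed because both genes rose, each 5′ to 3′ on the gene's strand with the core in capitals (ACACCT where it lies on the opposite strand).
Aldh1a1, chr19:20492381-20492410: ggatgcattttcACACCTtctcaatgtgac
Aldh1a1, second start, chr19:20601833-20601862: gctttcagccctAGGTGTtacaagtgagtg
Aldh1a2, chr9:71215765-71215794: gccccccgcttgACACCTgcctatatacag
The first lies at -190 to -185 from the annotated start, the second at -123 to -118 from a start further along the gene, and the third at -12 to -7. A match describes the letters and is not evidence of binding.

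Dhrs3, which reduces retinaldehyde back to retinol and so works against the enzymes above, did not pass. The gene (chr4:144892827-144928209, plus strand) had 335 normalized counts in the lowest knockout library, M3, a median of 439 and 527 in the highest, F3. In control libraries it had 571 in M1, 582 in M2, 362 in F1 and 411 in F2. The knockouts covered most of the range between the low and the high controls. The log2 fold change was -0.17 ± 0.15 (95% interval -0.46 to 0.13, adjusted p = 0.401), so a fall or a small rise both lie within the interval. Offsets for exon length and GC content gave -0.32 (adjusted p = 0.0884).

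Stra6, the cell-surface receptor that takes up retinol from its plasma carrier, was close to the floor of detection. The gene (chr9:58063788-58153996, plus strand) had 57 reads over the 6 knockout libraries and 45 over the 4 control libraries. Knockout M2 had the lowest value, 2.75 normalized counts, the knockout median was 10.0 and the highest 11.4, while control M1, M2, F1 and F2 had 10.6, 8.47, 3.47 and 24.1. The log2 fold change of -0.38 ± 0.45 (95% interval -1.26 to 0.50, adjusted p = 0.529) spans both directions, so a change was not detectable at this depth, and without control F2 the value was 0.26 (adjusted p = 0.682). Crabp2 (chr3:87948666-87953376, plus strand), which carries retinoic acid to the receptors in the nucleus, had 1 read in knockout F2, 1 in control M1 and 0 in the other libraries.

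**Figure D2:**
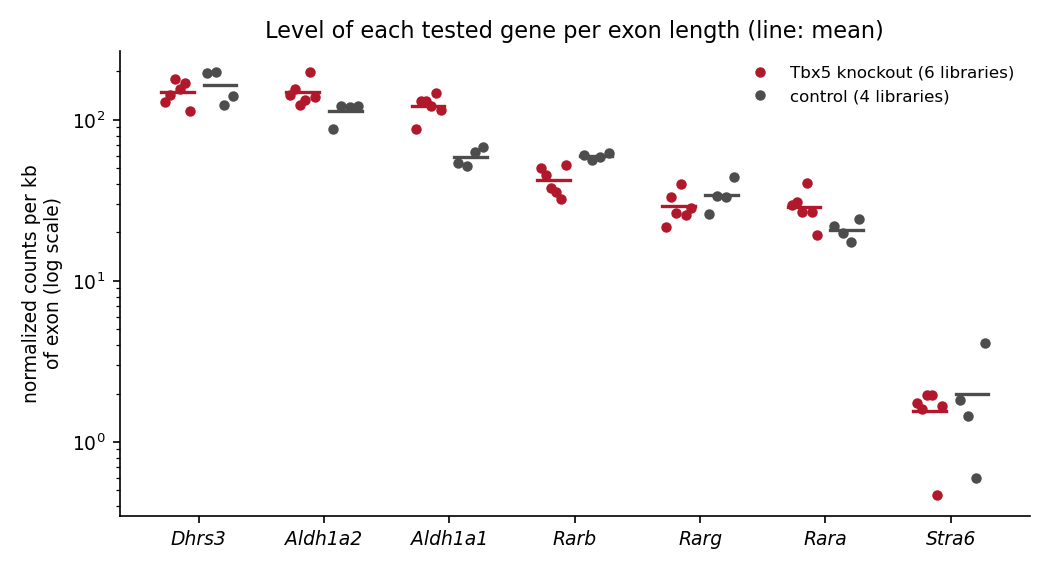
Normalized counts per kilobase of merged exon (log axis) of the 7 tested genes in 6 Tbx5 knockout libraries (red, left of each pair) and 4 control libraries (grey, right), with a line at each mean. Dhrs3 and the Aldh1a enzymes lie above the 3 receptors in knockouts, Rarb and Aldh1a1 lie together in controls, and Stra6 lies far below.

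In the order of levels per kilobase of merged exon, Aldh1a1 had different neighbours in the groups. The order depends on the merged exon lengths, with the limit given above. In knockout libraries Dhrs3 (114 to 180 normalized counts per kilobase), Aldh1a2 (124 to 198) and Aldh1a1 (88.3 to 147) overlapped at the top. Below them without overlap came Rarb (32.4 to 52.4), Rarg (21.7 to 39.9) and Rara (19.2 to 40.4), each overlapping the next. In control libraries Dhrs3 (124 to 199) and then Aldh1a2 (88.3 to 122) led without overlap, and Rarb (56.0 to 62.4) and Aldh1a1 (52.0 to 67.8) overlapped. Rarg (26.1 to 44.2) and Rara (17.5 to 24.2) followed there without overlap. Aldh1a1 thus stood beside Dhrs3 and Aldh1a2 in the knockouts and beside Rarb in the controls. Stra6 came next to last, at 1.57 ± 0.557 per kilobase in knockouts and 2.00 ± 1.51 in controls.

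Among the receptors, Rarb fell. Rarb (chr14:16430839-16819156, minus strand) encodes retinoic acid receptor beta, whose gene is itself a well-known target of retinoic acid. It had 170 normalized counts in the lowest knockout library, M2, a median of 219 and 276 in the highest, M3, against 317, 295, 312 and 328 in control M1, M2, F1 and F2. No knockout library reached the lowest control. Its mean was 222 ± 43.4 in knockouts and 313 ± 14.0 in controls (SD, n = 6 and 4), a log2 fold change of -0.51 ± 0.13, or 1.43-fold lower (95% interval of the log2 value -0.78 to -0.25, adjusted p = 0.00711). The call held under 23 of the 24 other settings and was lost only with the libraries labelled male alone (-0.54, adjusted p = 0.131), where the controls are those with high Xist. In the authors' deposited table the log2 fold change was -0.48 with an adjusted p of 0.00314.

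Rarb shares a stretch of DNA with a neighbour on the other strand. In the GENCODE M21 annotation, exons of Top2b, a DNA topoisomerase gene, overlap exons of Rarb by 1793 bases. The library kit named in the labels does not mark strand, and reads from this stretch cannot then be told apart. Top2b had 558 to 862 normalized counts in knockouts, with a median of 703, and 1345, 1177, 1240 and 994 in control M1, M2, F1 and F2, a log2 fold change of -0.80 ± 0.12 (adjusted p = 1.33e-04). With offsets for exon length and GC content Top2b stood at -0.32 (adjusted p = 0.0133) and Rarb at -0.50 (adjusted p = 0.00648). Top2b was lower in the same direction as Rarb, and its part in the Rarb result was not tested.

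The Rarb promoter is shown because it holds the best-known retinoic acid response element, a direct repeat of receptor half-sites. The search was for 2 half-sites (each of them AGGTCA or AGTTCA or GGGTCA or GGTTCA) in the same orientation, on either strand, with a spacer of 1, 2 or 5 bases. The repeat with a spacer of 5 was found in 32 of 32851 windows (0.0974%), 1 of them in Rarb and none for the other genes here. The spacings of 1 and 2 bases occurred in 0.222% and 0.268% of windows and in none of the 17 here, and no match of one motif overlapped a match of another. The Rarb sequence is given 5′ to 3′ on the gene's strand with both half-sites and the spacer in capitals.
Rarb, chr14:16575507-16575535: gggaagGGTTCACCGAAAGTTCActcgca
The repeat spans -53 to -37 from that start. The count of Rarb was summed over the gene and does not say which start the transcripts used.

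Rara, the receptor gene with the broadest expression across tissues, rose, and the call was weak. The gene (chr11:98927818-98974942, plus strand) had 84.0 normalized counts in the lowest knockout library, M3, a median of 124 and 176 in the highest, M1. In control libraries it had 95.8 in M1, 86.4 in M2, 76.3 in F1 and 106 in F2. The other 5 knockouts lay above every control, and knockout M3 lay within the control range. Its mean was 127 ± 30.2 in knockouts and 91.0 ± 12.6 in controls (SD, n = 6 and 4), a log2 fold change of 0.45 ± 0.17 and a 1.37-fold rise (adjusted p = 0.0473). Leaving out any of 7 libraries ended the call, with adjusted p = 0.0744 without knockout F1, 0.0813 without F2, 0.0642 without M1 and 0.0531 without M2, and 0.0713 without control M1, 0.0971 without control M2 and 0.128 without control F1. Correcting for GC content and exon length by offsets gave 0.34 (adjusted p = 0.0606), and limma-voom gave 0.43 (adjusted p = 0.0626). In the authors' deposited table it was 0.46 with an adjusted p of 0.0370.

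Rarg did not pass. Rarg (chr15:102234938-102257517, minus strand), the receptor gene best known from skin, had 92.7 normalized counts in the lowest knockout library, F1, a median of 117 and 170 in the highest, M1. In control libraries it had 111 in M1, 144 in M2, 142 in F1 and 188 in F2. Knockout F1 and M2 lay below every control, and the other knockouts lay among them. The log2 fold change was -0.26 ± 0.17 (95% interval -0.60 to 0.08, adjusted p = 0.240).

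**Figure D3:**
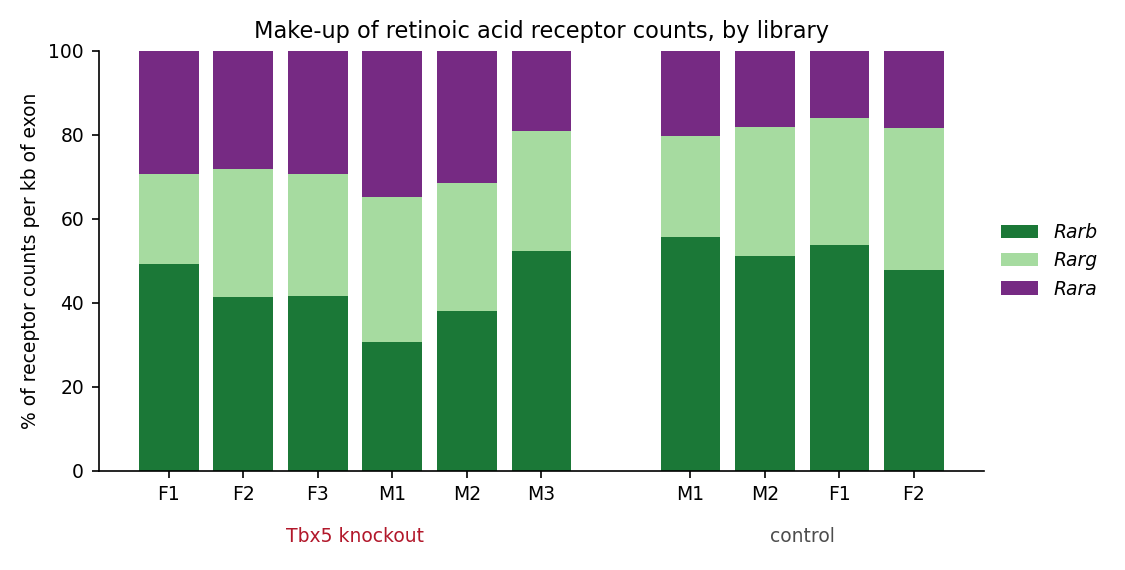
Share of each receptor gene (%, vertical axis) in the summed Rara, Rarb and Rarg counts per kilobase of exon, by library, with 6 Tbx5 knockout libraries on the left and 4 control libraries on the right. Rara takes 19.2 to 34.9% in knockouts and 15.9 to 20.3% in controls.

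The make-up of the receptor pool is given for each library, as a description without a test. It too depends on the merged exon lengths. Rara made up 28.8 ± 5.24% of the receptor counts per kilobase in knockouts and 18.2 ± 1.81% in controls. Rarb made up 42.2 ± 7.83% in knockouts, from 30.6% in M1 to 52.4% in M3, and 52.1 ± 3.45% in controls, from 47.7% in F2 to 55.6% in M1. Rarg stood at 29.0 ± 4.30% in knockouts and 29.8 ± 4.07% in controls. Knockout M3 and F1 fell inside the control range of the Rarb share and the other 4 below it. The summed level was 85.0 to 116 normalized counts per kilobase in knockouts and 108 to 131 in controls.

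**Figure D4:**
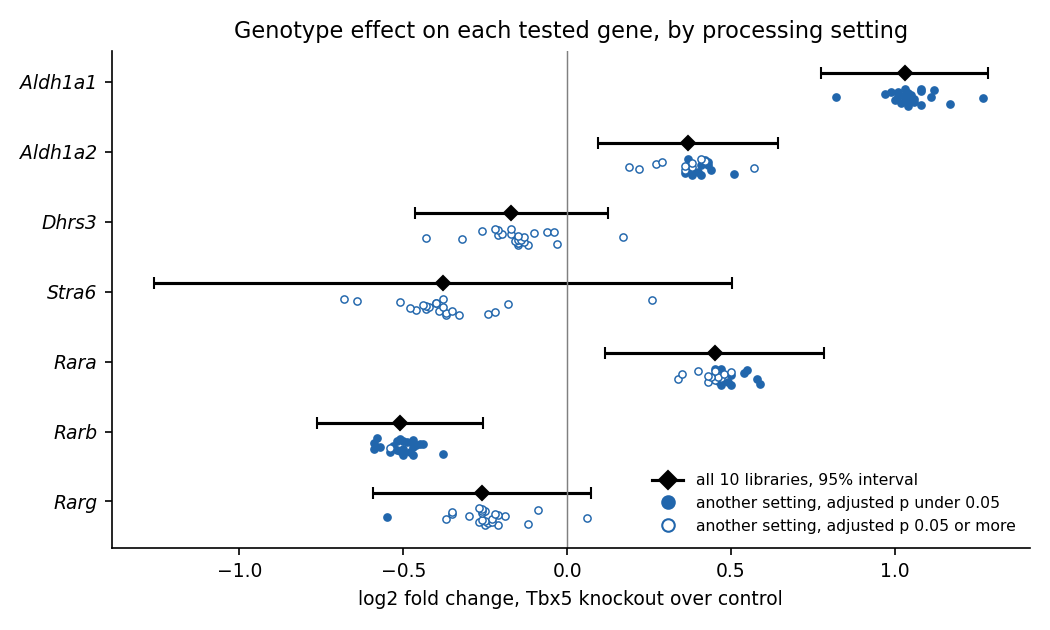
Log2 fold change, Tbx5 knockout over control, of each tested gene (black diamond with 95% interval, all 10 libraries) and under each other setting (blue points, filled where the adjusted p was under 0.05). Aldh1a1 stays filled from 0.82 to 1.27 and Rarb is open at 1 point, whereas Aldh1a2 and Rara are open at 11 and 12 of their 24 points.

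The individual knockout libraries did not rank alike across the genes. Knockout M2 had the highest Aldh1a1 and Aldh1a2 and the lowest Rarb. Knockout M3 had the lowest Rara and Dhrs3 and the highest Rarb. Without knockout M3 and control F1, the libraries holding both Xist and Y-linked reads, the log2 fold change was 1.08 for Aldh1a1 (adjusted p = 4.46e-04), 0.47 for Rara (adjusted p = 0.0392) and -0.58 for Rarb (adjusted p = 0.00863). Scaling to library size alone moved the median of all tested genes by 0.14 and kept these directions, with 1.17 for Aldh1a1, 0.51 for Aldh1a2, 0.59 for Rara and -0.38 for Rarb, and the split of all calls became 3942 higher and 2020 lower.

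The effect of knockout was also set between the labelled sexes, with the limit that all 4 controls carry sex-linked transcripts of the other sex than their label. By label, 27 genes (0.205%) differed in their knockout effect between males and females, and 2 (0.0152%) differed between males and females. None of the 7 genes passed either test by edgeR, and none passed the first by DESeq2. Before adjustment, 1 of the genes, Dhrs3, was under 0.05 for the difference in effect (edgeR, male minus female effect -0.61 ± 0.25, adjusted p = 0.631), beside 943 of all 13191 genes. If the transcripts and not the labels give the sex of the controls, these comparisons change their meaning. The first would then measure a sex difference over both genotypes, not a difference in knockout effect. The second would set the sex differences of knockouts and controls against each other. No difference between the sexes is read from these values.

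Genes with the closest pattern over the 10 libraries were found by the root mean square difference of log2(normalized count + 1) values, each gene centred on its control mean, among 10143 genes. For Aldh1a1 these were Maff (0.13 log2 units), Svep1 (0.15) and Slc38a2 (0.16). For Aldh1a2 they were Pfkp (0.10), Grap (0.11) and Ssh3 (0.12), and for Rara they were Lrp5 (0.11), Dchs1 (0.12) and Rhog (0.13). For Rarb they were Zbtb11 (0.09), Plcb1 (0.10) and Zfp27 (0.11), the last replaced by Cdk5rap1 with a pseudocount of 5 in place of 1. No other retinoid gene was among them, which says little where only 3 of 10143 genes were kept for each.

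The wider pathway was covered by 67 further genes in 6 lists, of which 39 passed the filter on low counts and were tested. Of these 39, 6 rose, 10 fell and 23 did not pass, beside the 20.8% and 21.8% of all tested genes. In 7 of the 39 the groups did not overlap, beside 31.3%. Their median log2 fold change was -0.18. The named genes below are single results, and nothing is read from the lists as a whole.

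**Figure D5:**
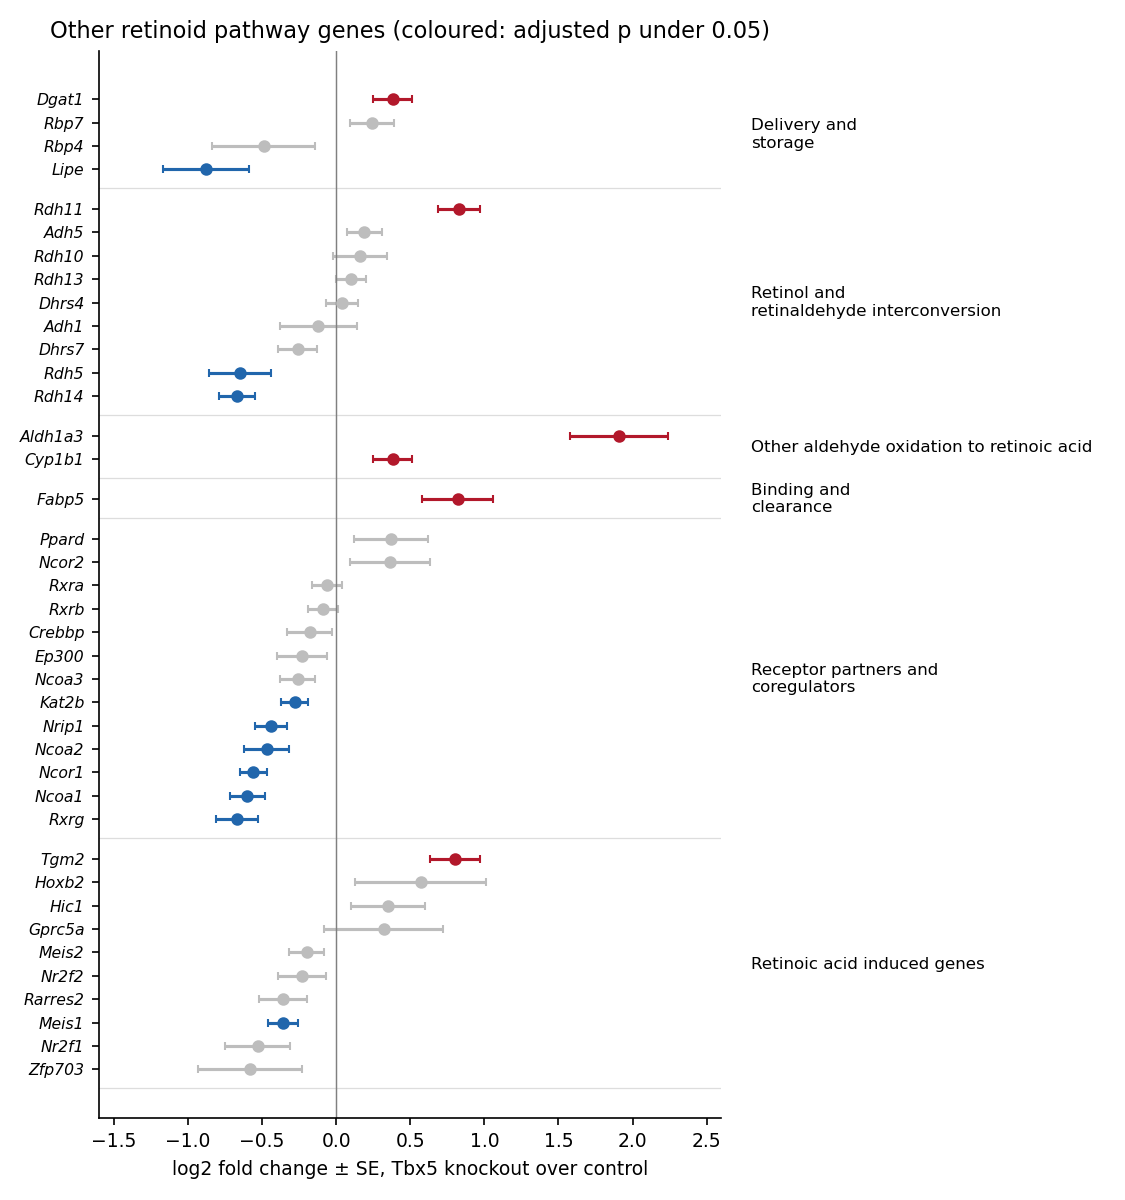
Log2 fold change, Tbx5 knockout over control, ± SE for the 39 tested pathway genes by list, with genes past an adjusted p of 0.05 in red where higher and in blue where lower. Aldh1a3 lies farthest to the right at 1.91, and all coloured points of the receptor partners and coregulators lie left of 0.

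In delivery and storage (4 of 12 tested), 1 rose and 1 fell, Dgat1 and Lipe, with a median log2 fold change of -0.13. Rbp4, the plasma retinol carrier, stood at -0.49 ± 0.35 and Rbp7 at 0.24 ± 0.15, neither past the threshold.

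In the interconversion of retinol and retinaldehyde (9 of 17 tested), 1 rose and 2 fell, with a median of 0.04. Rdh11, a retinaldehyde reductase, averaged 85.7 ± 12.2 normalized counts in knockouts and 47.4 ± 3.98 in controls, a log2 fold change of 0.83 ± 0.14 (adjusted p = 3.87e-04). Rdh14, another member of that enzyme family, averaged 274 ± 49.1 in knockouts and 429 ± 14.8 in controls (-0.67 ± 0.12, adjusted p = 6.97e-04). Rdh10, the main retinol dehydrogenase of retinoic acid synthesis in the embryo, averaged 70.3 ± 16.1 in knockouts and 61.7 ± 8.07 in controls and did not pass (0.16 ± 0.18, adjusted p = 0.496).

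In the list of other aldehyde oxidation to retinoic acid (2 of 4 tested), both tested genes rose, with a median of 1.14. Aldh1a3, the remaining retinaldehyde dehydrogenase of the Aldh1a family, had 61.7 normalized counts in the lowest knockout library, F3, and 209 in the highest, M2, against 28.4, 29.6, 27.8 and 36.6 in control M1, M2, F1 and F2. Every knockout lay above every control, with a spread among knockouts wider than the control level itself. Its log2 fold change was 1.91 ± 0.33 (adjusted p = 4.39e-04), larger in size than that of Aldh1a1, though the difference between them was not tested. Knockout M2 was thus the highest library for all 3 of Aldh1a1, Aldh1a2 and Aldh1a3.

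In binding and clearance, 1 of 5 genes was tested and rose. Fabp5, a fatty acid carrier that also delivers retinoic acid, averaged 139 ± 26.2 normalized counts in knockouts and 76.1 ± 36.8 in controls (0.82 ± 0.24, adjusted p = 0.0137), a call lost without both knockout M3 and control F1 (0.66, adjusted p = 0.0814). Without control M2 alone it stood at 1.26 (adjusted p = 2.04e-04). Of the Cyp26 enzymes, which break retinoic acid down, Cyp26a1 had 0 reads in all libraries, which allows at most 3 of the 65018652 reads (counting error only). Cyp26b1 had 19 reads in knockouts and 42 in controls, below the filter. In a fit without that filter, whose 3 lower genes were picked out after their values were seen, Cyp26b1 (-1.80 ± 0.55, adjusted p = 0.0176), the retinol-esterifying Lrat (20 reads in knockouts and 41 in controls, -1.70 ± 0.45, adjusted p = 0.00710) and the plasma carrier Ttr (24 and 64 reads, -2.04 ± 0.43, adjusted p = 0.00155) were lower in knockouts.

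Among receptor partners and coregulators all 13 were tested, 0 rose and 6 fell, with a median of -0.26. Rxrg, a retinoid X receptor, had 129 to 210 normalized counts in knockouts, lowest in M2 and highest in F3, and 250, 260, 224 and 261 in control M1, M2, F1 and F2. Every knockout lay below every control, and the log2 fold change was -0.67 ± 0.14 (adjusted p = 0.00129). Rxra and Rxrb, the broadly expressed partners, stood at -0.06 ± 0.10 and -0.09 ± 0.10 and did not pass. The corepressor gene Ncor1 fell to 941 ± 68.3 in knockouts, against 1361 ± 121 in controls (-0.56 ± 0.09, adjusted p = 2.36e-04). With offsets for exon length and GC content the Ncor1 value was -0.26 (adjusted p = 0.0109). The coactivator gene Ncoa1 fell to 341 ± 56.5 in knockouts, against 507 ± 57.9 in controls (-0.60 ± 0.12, adjusted p = 0.00169). Nrip1, a corepressor, fell by less (-0.44 ± 0.11, adjusted p = 0.00461), and with offsets for exon length and GC content it stood at -0.07 (adjusted p = 0.572).

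Of 19 further genes known to be induced by retinoic acid, 11 were tested, 1 rose and 2 fell, with a median of -0.23. Rarb, Dhrs3, Stra6 and Crabp2 are also known to be induced by it and were kept out of this list, with their values given above. The gene that rose was Tgm2, the tissue transglutaminase, which averaged 5566 ± 1174 normalized counts in knockouts and 3137 ± 631 in controls (0.80 ± 0.17, adjusted p = 0.00154). The 2 that fell were Nrip1 and Meis1, a homeobox gene (-0.36 ± 0.10, adjusted p = 0.0120), which stood at -0.01 (adjusted p = 0.948) with the offsets, at -0.22 with library-size scaling (adjusted p = 0.120) and at -0.33 without knockout M3 and control F1 (adjusted p = 0.0554). The orphan receptor genes Nr2f1 (-0.53 ± 0.22) and Nr2f2 (-0.23 ± 0.16) did not pass.

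The remaining 6 called pathway genes each lost the call when at least 1 library was left out. Cyp1b1, a cytochrome that can form retinoic acid (0.38 ± 0.13, adjusted p = 0.0296), had adjusted p = 0.0599 without knockout M2, 0.0572 without control M2, 0.0806 without control F1 and 0.0608 without control F2. Dgat1, an acyltransferase that can esterify retinol (0.38 ± 0.13, adjusted p = 0.0243), had adjusted p = 0.0561 without control M1 and 0.0577 without control F1, and it stood at 0.22 with the offsets (adjusted p = 0.192). Lipe, the hormone-sensitive lipase gene (-0.88 ± 0.29, adjusted p = 0.0232), had adjusted p = 0.155 without control M1, where it stood at -0.50, and 0.0729 without control M2. It had 82.9 to 183 normalized counts in knockouts, and 403, 279, 133 and 142 in control M1, M2, F1 and F2. The adipocyte markers described below were also highest in control M1 and M2, while Adipoq had only 2.31 and 0 in control F1 and F2. With the libraries labelled female alone Lipe stood at -0.04 (adjusted p = 0.869). That fit leaves out control M1 and M2, and it also sets knockouts with high Xist against controls with Y-linked reads. With library-size scaling Lipe stood at -0.75 (adjusted p = 0.0552). Rdh5, a retinol dehydrogenase of the visual cycle (-0.65 ± 0.21, adjusted p = 0.0232), had adjusted p = 0.0502 without knockout F3, 0.0836 without control M2, 0.0661 without control F2 and 0.0629 with library-size scaling. The coactivator gene Ncoa2 (-0.47 ± 0.15, adjusted p = 0.0193) had adjusted p = 0.0821 without control M1, 0.0686 without control F1 and 0.591 with the offsets, where it stood at -0.09, and 0.103 with library-size scaling. The acetyltransferase gene Kat2b (-0.28 ± 0.09, adjusted p = 0.0287) had adjusted p = 0.0502 without knockout F1, 0.0524 without F2 and 0.0522 without M2, and 0.131 without control M1 and 0.131 without control F1. Kat2b also lost the call with library-size scaling (-0.14, adjusted p = 0.205), upper-quartile scaling (adjusted p = 0.0554) and no filter on low counts (adjusted p = 0.0638).

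Some markers of the cell types in the tissue differed between the groups. Their counts stand beside the 20.8% of all tested genes that were higher and the 21.8% that were lower. In whole tissue, fewer cells of a type and less RNA per cell cannot be told apart. In the epicardial and mesothelial list, 1 of 10 tested genes was higher (Krt8) and 0 lower, with sums of 4093 to 5866 normalized counts in knockouts and 4215 to 5232 in controls. Its defining genes Upk3b (-0.27 ± 0.12), Wt1 (-0.08 ± 0.14) and Msln (0.28 ± 0.13) did not pass. The fibroblast list had 6 of 10 higher and 2 lower, with sums of 52859 to 67079 in knockouts and 46262 to 50210 in controls. Of its defining genes, Tcf21 rose (1.29 ± 0.14) and Pdgfra fell (-0.54 ± 0.12). The macrophage list had 10 of 10 higher, with sums of 8922 to 13303 in knockouts and 4038 to 5599 in controls. The smooth muscle and pericyte list had 5 of 8 higher and 0 lower (sums 3984 to 4865 in knockouts, 2716 to 3232 in controls). The endothelial list had 3 of 7 higher and 2 lower, with sums of 8153 to 8943 in knockouts and 7261 to 7999 in controls. The endocardial list had 2 of 5 higher and 2 lower, with sums of 11372 to 14238 in knockouts and 8958 to 10203 in controls. Vwf alone averaged 8625 ± 940 in knockouts and 4277 ± 772 in controls, of mean sums of 12656 and 9714. Plvap was the other higher gene, and the 2 lower were Npr3 (-0.59 ± 0.10) and Cytl1 (-1.31 ± 0.27). The glial list had 1 of 2 tested genes each way. No lymphocyte, adipocyte or lung epithelium marker reached the filter. The summed adipocyte markers Adipoq, Cidec and Plin1 ranged from 3.72 to 25.9 normalized counts in knockouts and from 2.31 to 102 in controls, where control M1 and M2 held nearly all of them (Adipoq 39.0 and 41.5, against 2.31 in F1 and 0 in F2). These were also the controls with the highest Dhrs3 and Lipe, and the part of fat in either value was not tested. In the atrial muscle list, 4 of 4 were lower, with sums of 84618 to 198467 in knockouts and 320501 to 373585 in controls. The general cardiomyocyte list had 2 of 8 higher and 3 lower. Its sums were 332042 to 477505 in knockouts and 651292 to 839876 in controls. Of these, Ttn alone averaged 135951 ± 30313 in knockouts and 448113 ± 62205 in controls. The 10 most abundant genes took 10.9 to 14.4% of reads in knockouts and 19.3 to 20.9% in controls. The part of these shifts in the values of the retinoic acid genes was not tested.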

How the data were processed

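Left atrial RNA from 6 Tbx5 knockout and 4 control mice was read as 51-bp single-end reads after globin depletion, per the labels' protocols, which name both an mRNA kit and ribosomal-depleted total RNA. The genome build was mm10 and the software FastQC, featureCounts, DESeq2 and TopHat2 2.0.11, per the submitters' processing notes. What annotation and strand setting were used, and how reads shared by paralogs were treated, is not given in the sources used here. The authors deposited raw counts per gene, per the file headers. They also deposited a normalized signal, which equals the count over a library's size factor; levels in the text are these normalized counts. The log2 fold change, its standard error and test statistic (a score), the p-value and adjusted p-value, and the linear fold ratio were computed by the authors and deposited with the counts.

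Raw counts were tested with edgeR 4.0.16 in R 4.3.3: filterByExpr, TMM scaling, quasi-likelihood F-test, Benjamini-Hochberg adjustment over 13191 genes, threshold 0.05. The SE is the absolute log2 fold change over the square root of F, and intervals are 1.96 SEs either side. The code was tested on simulated data, where it called 32.8% of 64 genes changed 1.5-fold and 85.5% of 69 changed 2-fold. Changes of about 1.5-fold or less can thus go uncalled. The simulation had 151 calls in all, against 5622 here, so these shares do not carry over exactly. Positions and merged exon lengths came from GENCODE M21 (GRCm38), matched by symbol, and promoter sequences from RefSeq (GRCm38.p6). Listed symbols absent from the table were sought under RefSeq synonyms, and Bcmo1, 1300002K09Rik and Emr1 were used. Exactly 1 gene of the lists is not reported here and was left out of the list counts; the other members count whether named or not. Named were Tbx5, the 8 genes, up to 20 called pathway genes, needed markers and 3 genes of likest pattern for each called gene. The members and lists were chosen with earlier results of these data known. The sex-linked genes, Top2b, and the fits with a robust estimate or without knockout M3 and control F1 were added after seeing the data. Alternatives were RLE, upper-quartile and library-size scaling, DESeq2 1.42.0, limma-voom (limma 3.58.1), other low-count filters (none, or 4 libraries with 50 or more counts), labelled sex or a replicate block as covariate, exon length and GC offsets (11973 genes), single labelled sexes, an adjusted p of 0.1, and each library left out. Libraries are labelled as separate animals and no batch is given. Between libraries of a group, chi-square over its degrees of freedom was at least 4.27, so none repeats another. Counts of a few reads carry large counting error, and limits from a count of 0 (3 counts) cover counting error only.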

Additional observations from a re-analysis of the deposited data

Results flagged for a closer look

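Aldh1a2 in control M1 stood at 200 normalized counts, below the nearest other control at 274, while the other controls lay within 274 to 277. The gap was 0.96 of the group's range, above Dixon's critical value for 4 libraries. Without this library the Aldh1a2 log2 fold change was 0.29 (adjusted p = 0.122).

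Stra6 in knockout M2 stood at 2.75 normalized counts, from 3 reads, below the nearest other knockout at 9.30. The gap was 0.76 of the range, above the critical value for 6 libraries. In all, 16 groups of values were examined and 2 were picked out, and chance alone picks out about 1 in 20.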

How the results depend on the processing

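The count of all genes called was 5622 and stayed within 1.5 times under all alternatives except the libraries labelled male alone, which gave 2061. Of the retinoic acid genes 4 were called, 3 higher and 1 lower. With labelled sex as covariate 2 were called, 1 higher; with exon length and GC offsets 2, 1 higher; with the libraries labelled male alone 1, 1 higher and 0 lower; with those labelled female alone 1 higher and 2 lower, the second being Rarg (-0.55, adjusted p = 0.0374). With single libraries left out, 2 to 4 were called, 1 to 3 of them higher. Aldh1a1 was called under all 24 alternatives, Rarb under 23, Aldh1a2 under 13 and Rara under 12; the cause of the lost calls was not tested, beyond the fewer libraries in some fits. Fits by labelled sex or replicate number rest on labels that the controls' sex-linked genes go against. The sign turned, without a call, for Dhrs3 with the libraries labelled female alone (0.17, adjusted p = 0.395), for Stra6 without control F2 (0.26, adjusted p = 0.682) and for Rarg with the libraries labelled male alone (0.06, adjusted p = 0.900). The labelled-sex interaction had 27 genes, 114 with no filter, 80 by DESeq2 and 7 to 77 with single libraries left out.

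Replicate numbers did not pair the libraries, with correlations of deviations of -0.13, -0.05, -0.04 and 0.17. With a replicate block 5411 genes were called and the 4 retinoic acid calls held (Aldh1a1 adjusted p = 0.00107, Aldh1a2 0.0116, Rara 0.00973, Rarb 0.00500), while Dgat1 lost its call (0.27, adjusted p = 0.125). Knockout F3 and M3 have no control of the same replicate number, so they carried no information on genotype in that fit. Knockout M3 was the library within the control range of Rara. Of the pathway genes, Aldh1a3 and Rxrg were called under all 24 alternatives. Depth limits Stra6, Crabp2 and the pathway genes below the filter.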
